A study of Mus musculus with 6 samples.

Results

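The genes described here make cholesterol, sense its level or move it, and were followed in a mouse lymphocyte line after disruption of Cbfb. They are 31 genes chosen by function (synthesis enzymes, SREBP regulators, and uptake and efflux genes) and not by a threshold on the values measured. Earlier results of these data were known when they were chosen, so their counts beside all rows are a description alone. Of these, 28 had a named row in the expression table, which holds 25206 rows. Acat2, Nr1h2 and Soat1 were without such a row and are not analysed here. The cells were group 2 innate lymphoid cells (ILC2s), lymphocytes that lack antigen receptors and secrete type 2 cytokines. Lines of C57BL/6J origin were grown with IL-2 and IL-33 (10 ng/ml). In both groups the cells received a lentiviral CRISPR construct with a GFP marker, carrying a non-target guide in 3 samples (control) or a guide to Cbfb in 3 samples (knockout). RNA came from GFP-positive cells sorted 6 days after transduction. The labels state neither how many guides or clones were used nor whether the 3 samples of a group were separate cultures. The p-values therefore reflect the spread among these arrays alone, and that spread may be technical.

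Cells build cholesterol from acetyl-CoA by way of mevalonate, squalene and lanosterol. The SREBP transcription factors switch on the genes of these steps. SCAP carries SREBP out of the endoplasmic reticulum for activation, and the INSIG proteins hold both back when sterols are plentiful. Oxysterols activate the LXR receptors instead, which switch on the efflux transporters ABCA1 and ABCG1. Dividing lymphocytes are known to use SREBP to supply sterols for new membranes. CBFβ, the product of Cbfb, is the partner that stabilises RUNX transcription factors on DNA.

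The arrays report each gene on a log2 scale, where a difference of 1 is a 2-fold change. Values ran from 0.66 to 12.51, and the median per array lay between 3.57 and 3.63. Cbfb itself read 8.65 ± 0.11 in control and 7.83 ± 0.12 in knockout (SD, n = 3 arrays per group), or 56.4% of the control signal (limma adjusted p = 0.00205). Neither the edit itself nor CBFβ protein was measured. Of 12 ILC2 markers 10 had a named row. Gata3 read 10.52 to 10.71 and Klrg1 11.33 to 11.40 over the 6 arrays, but Thy1 read only 3.27 to 3.51 and the control arrays only 2.94 to 3.62 for Rora. Those low values lie near 3.6, the median of all group means. Rora rose in the knockout, to 5.21 to 5.77, while Icos, Il7r and Il5 fell. Macrophages handle much sterol, and 0 of 6 measured macrophage and monocyte markers passed the test. Adgre1 read 1.90 to 2.23, Mrc1 2.28 to 2.59, Csf1r 2.52 to 3.08 and Cd14 2.53 to 3.36. Marco read higher, at 3.75 to 4.12, and Cd68 read 5.64 to 6.12. None of 7 T cell markers (2.18 to 5.37), 4 B cell markers (1.37 to 3.03) or 6 stromal and epithelial markers (2.67 to 8.11, with Epcam the highest) passed, and Cpa3 was the 1 of 6 markers of mast cells and basophils to pass, with a fall of 2.91 (log2). Over all rows 4.24% fell and 5.51% rose at a limma adjusted p under 0.05, so the absence of calls in lists this short says little. The part of these markers in the sterol results was not tested.

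Of 17 measured genes for cholesterol synthesis enzymes, 5 fell in the knockout, 1 rose and 11 did not pass the test. The lanosterol demethylase gene Cyp51 fell by 0.86 (log2 units throughout) and Lss, the lanosterol synthase gene, by 0.75. The sterol sensor gene Insig1 fell by 0.85. Against this direction, Hsd17b7, which encodes a later enzyme of the same route, rose 2.03-fold. Of the 28 measured genes, 6 fell (Cyp51, Insig1, Lss, Msmo1, Idi1 and Hmgcs1), 3 rose (Hsd17b7, Insig2 and Abcg1) and 19 did not pass the test. Over all 25206 rows, 4.24% fell and 5.51% rose by the same rule, a limma adjusted p under 0.05 with Benjamini-Hochberg adjustment over all rows. The same shares stand beside the counts by role given below. Only 2 of the 28 genes had a group mean below 3.6, the median level, so all rows are not matched to them in level. When the fit was limited to rows above the median level, 1953 rows rose and 1564 fell, more than in the fit of all rows. The median difference of the 28 genes was -0.13, beside -0.0067 over all rows. The 3 knockout arrays lay wholly below the 3 control arrays in 11 of the 28 and wholly above them in 5, and such separation in either direction was seen in 27.5% of all rows.

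Cyp51, Lss, Insig1 and Hsd17b7 passed in each fit that left out 1 array. The other 5 lay closer to the threshold. The number that fell was 3 without control replicate 2, without knockout replicate 1 or without knockout replicate 3. The number that rose was 1 without control replicate 2, without knockout replicate 2 or without knockout replicate 3.

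**Figure D1:**
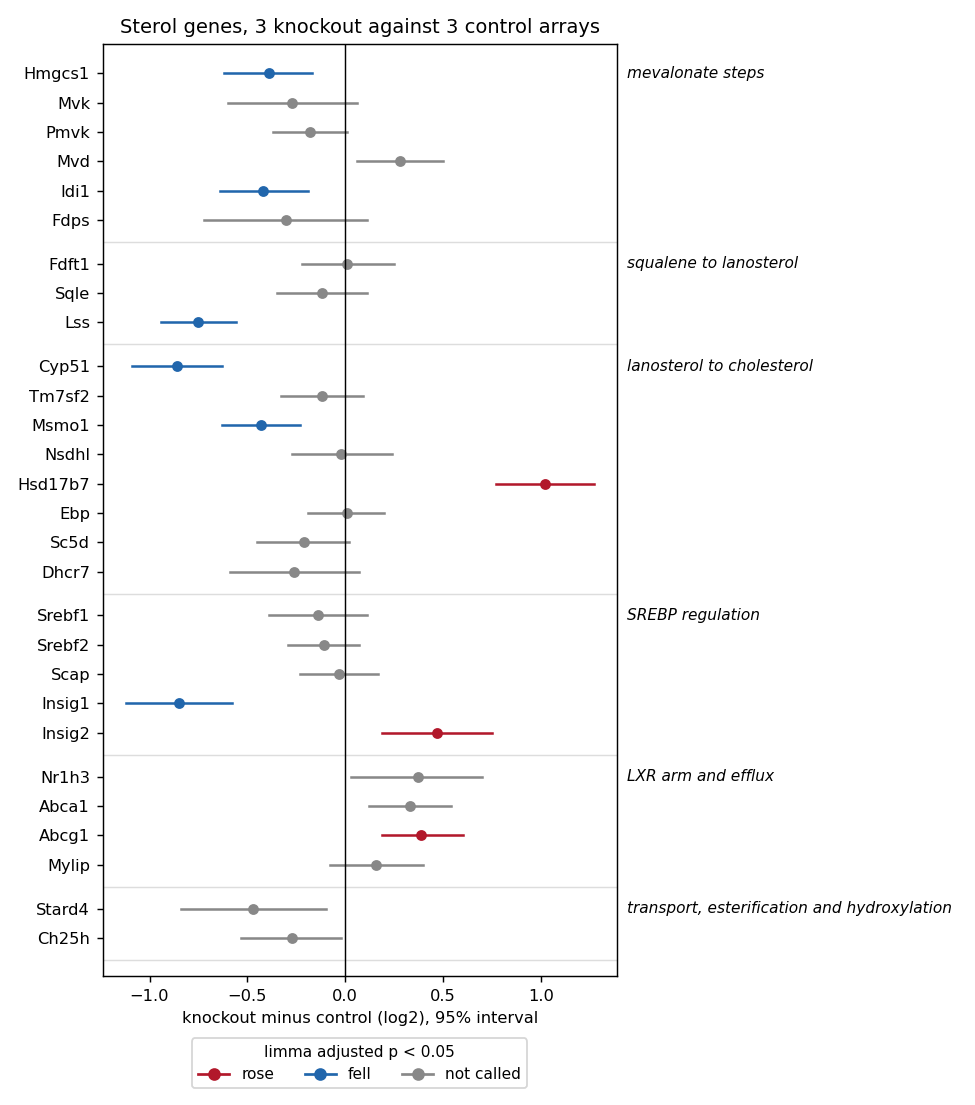
Difference of knockout minus control for the 28 measured sterol genes, in log2 units, grouped by role and in pathway order. Points are differences between the means of 3 arrays per group, bars are 95% intervals from limma, and colour marks the 6 genes that fell, the 3 that rose and the 19 that were not called. Cyp51, Insig1 and Lss lie furthest to the left and Hsd17b7 furthest to the right.

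Among the steps up to farnesyl diphosphate, 2 of 6 measured genes fell and none rose. Hmgcs1 encodes the cytosolic synthase that makes HMG-CoA, at the entry of the pathway. The control values were 7.87, 8.11 and 7.97, and the knockout values 7.48, 7.68 and 7.61. Every knockout array was below every control array. The difference was -0.39 with a standard error of 0.098, or 76.1% of control (limma adjusted p = 0.0425). Hmgcs1 lost its call in every one of the 6 fits that dropped 1 array (limma adjusted p 0.0501 to 0.143).

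Idi1, which isomerises the activated isoprene unit, read 5.15, 5.28 and 5.02 in control and 4.76, 4.80 and 4.64 in knockout. These groups did not overlap, and the difference was -0.42 (standard error 0.097, limma adjusted p = 0.0329). Idi1 kept its call without control replicate 3 (limma adjusted p = 0.0421) and missed the threshold without any of the other 5 arrays (limma adjusted p 0.0684 to 0.117).

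The remaining mevalonate genes did not pass. The kinase genes Mvk (-0.27, limma adjusted p = 0.317) and Pmvk (-0.18, limma adjusted p = 0.234) read lower in the knockout by mean. Mvd, the decarboxylase gene of the next step, was the 1 mevalonate gene with a higher knockout mean, 6.55 ± 0.076 against 6.27 ± 0.13 (limma adjusted p = 0.120). Its arrays did not overlap either, at 6.16 to 6.41 in control and 6.46 to 6.60 in knockout. Fdps, which makes farnesyl diphosphate, read 4.49, 5.08 and 5.21 in control, a wide spread, and 4.56, 4.76 and 4.55 in knockout. Its difference was -0.30 (limma adjusted p = 0.381), and -0.52 without control replicate 1 (limma adjusted p = 0.0363).

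Between farnesyl diphosphate and lanosterol, the fall lay in the last of 3 enzymes. Fdft1, the squalene synthase gene, read 8.40 ± 0.11 in control and 8.42 ± 0.13 in knockout, with a 95% interval of the difference from -0.22 to 0.25. Sqle, which encodes squalene epoxidase, differed by -0.12, with an interval from -0.35 to 0.11. Lss encodes lanosterol synthase, which folds the epoxide into the sterol ring system. Its control arrays read 7.81, 7.72 and 7.87 and its knockout arrays 7.09, 7.07 and 7.00, a gap several times wider than the spread within either group. The knockout mean was 59.6% of control, with a 95% interval from 52.2% to 68.0% (limma adjusted p = 0.00146).

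From lanosterol to cholesterol, 2 of 8 genes fell and 1 rose. Cyp51, which removes the first methyl group of lanosterol, read 7.55, 7.73 and 7.59 in control and 6.64, 6.91 and 6.75 in knockout. All 3 knockout arrays were below all 3 control arrays. The knockout mean was 55.2% of control, with a 95% interval from 47.1% to 64.8% (limma adjusted p = 0.00183). Msmo1, the methylsterol oxidase gene, read 8.00, 8.20 and 8.11 in control and 7.65, 7.75 and 7.62 in knockout. Its groups did not overlap and its difference was -0.43 (standard error 0.089, limma adjusted p = 0.0205). The call of Msmo1 was lost without control replicate 2 (limma adjusted p = 0.0851), control replicate 3 (0.0682), knockout replicate 1 (0.0616) or knockout replicate 3 (0.0707).

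Hsd17b7 encodes the ketosterol reductase that finishes the demethylation begun by the Msmo1 product, and the same enzyme can form estradiol from estrone. It read 9.19, 9.47 and 9.29 in control and 10.20, 10.35 and 10.47 in knockout. The lowest knockout array was well above the highest control array. The rise of 1.02 on the log2 scale had a standard error of 0.11 (2.03-fold, limma adjusted p = 0.00121). Nsdhl, the dehydrogenase gene that acts between Msmo1 and Hsd17b7, read 7.73 ± 0.069 and 7.71 ± 0.19 (95% interval of the difference -0.27 to 0.24). Neighbouring genes of the demethylation steps therefore read in 3 ways: Msmo1 fell, Nsdhl did not pass and Hsd17b7 rose.

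The other 4 genes of the late steps did not pass. The isomerase gene Ebp read 7.42 ± 0.10 and 7.43 ± 0.017, with an interval from -0.19 to 0.20. The desaturase gene Sc5d (-0.21, limma adjusted p = 0.262), the terminal reductase gene Dhcr7 (-0.26, limma adjusted p = 0.336) and the sterol reductase gene Tm7sf2 (-0.12, limma adjusted p = 0.519) had lower knockout means. Lbr, from the wider list of sterol genes, encodes the lamin B receptor, which carries the same reductase activity as the Tm7sf2 product. It fell from 9.94 ± 0.040 to 9.40 ± 0.087 (limma adjusted p = 0.00677).

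Among the 5 genes of SREBP control, Insig1 fell, Insig2 rose at the edge of the threshold, and the others did not pass. Insig1, a retention factor whose gene is itself an SREBP target, read 9.32, 9.44 and 9.12 in control and 8.29, 8.45 and 8.60 in knockout. The groups were separated by more than the range of either. The difference was -0.85 with a standard error of 0.12, or 55.6% of control (95% interval 46.1% to 67.0%, limma adjusted p = 0.00393). Insig2 encodes the paralogous retention factor, whose gene is not held to depend on SREBP in the same way. It read 4.79, 5.06 and 5.25 in control and 5.44, 5.52 and 5.56 in knockout.

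The Insig2 groups did not overlap, but its control arrays were spread. The rise was 0.47 with a standard error of 0.12 (1.39-fold, limma adjusted p = 0.0482). It passed without control replicate 3 (limma adjusted p = 0.0323) and missed the threshold in the other 5 fits that left out 1 array (limma adjusted p 0.0872 to 0.133). Insig2 also missed it with repeated quantile normalisation (limma adjusted p = 0.0858), with arrays centred on their medians (0.0575), with array weights (0.0503) and without variance moderation (0.169), so it was called in 5 of 14 alternatives.

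The transcripts of the SREBP factors and of their escort did not pass the test, though the intervals leave room for modest falls. Srebf2, which encodes the factor that chiefly drives cholesterol genes, read 8.84, 8.74 and 8.79 in control and 8.66, 8.67 and 8.71 in knockout. The arrays did not overlap, yet the difference of -0.11 was small (95% interval -0.29 to 0.07, limma adjusted p = 0.476). Srebf1, whose products drive fatty acid genes as well, read 7.39, 7.37 and 7.31 in control and 7.01, 7.39 and 7.25 in knockout. Its groups overlapped, and the difference was -0.14 (interval -0.39 to 0.11, limma adjusted p = 0.528). Scap read 7.70, 7.52 and 7.72 in control and 7.59, 7.61 and 7.64 in knockout, with an interval from -0.23 to 0.17. SREBP activity is set by transport and cleavage of the protein, which arrays do not measure.

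**Figure D2:**
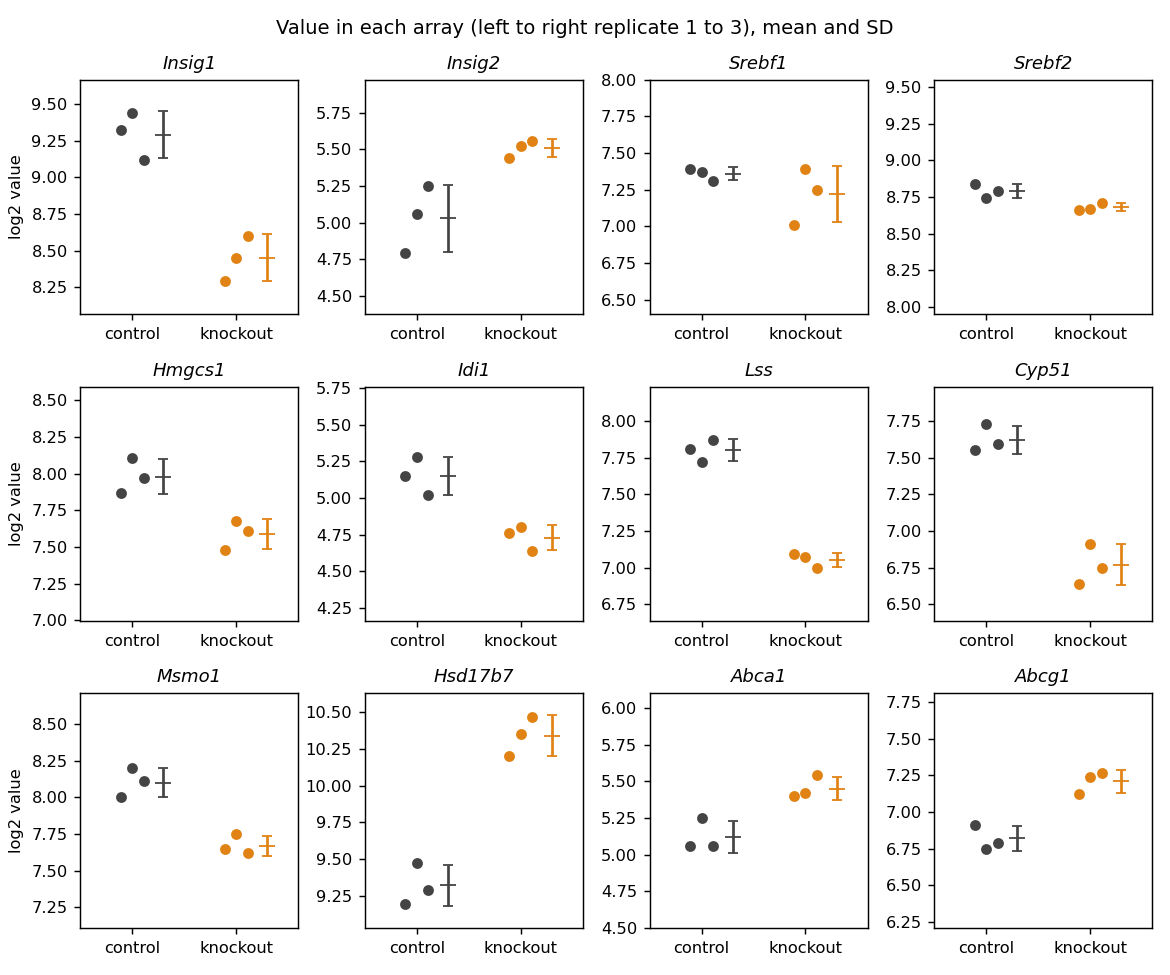
Log2 value of 12 sterol genes in each of the 6 arrays, with control in grey and knockout in orange. Points are arrays, the bar beside them is the mean with its SD (n = 3), and every panel spans the same log2 range, so vertical distances compare between panels while levels do not. Insig1, Lss and Cyp51 drop and Hsd17b7 climbs by far more than the spread within a group, while the Srebf1 arrays overlap.

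On the LXR side, 1 of 4 measured genes rose and 3 did not pass, with all 4 knockout means above the control means. Abcg1, which exports cholesterol to mature lipoproteins, read 6.91, 6.75 and 6.79 in control and 7.12, 7.24 and 7.27 in knockout. The groups did not overlap, and the rise was 0.39 with a standard error of 0.088 (1.31-fold, limma adjusted p = 0.0276). It missed the threshold without control replicate 2 (limma adjusted p = 0.106), control replicate 3 (0.0899), knockout replicate 2 (0.0915) or knockout replicate 3 (0.0902). Abca1, the transporter that loads lipid-poor apolipoprotein, read 5.06, 5.25 and 5.06 in control and 5.40, 5.42 and 5.54 in knockout.

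The Abca1 arrays did not overlap, and its difference of 0.33 lay just outside the threshold (limma adjusted p = 0.0626). Nr1h3, the gene of LXRα, read 3.66, 3.77 and 3.28 in control and 4.09, 3.76 and 3.96 in knockout. Those groups overlapped, and the difference was 0.37 (limma adjusted p = 0.175). The levels of Nr1h3 lie near 3.6, where the values carry no detection calls and differences can be understated. Mylip, an LXR target that marks lipoprotein receptors for destruction, read 4.29, 4.38 and 4.35 in control and 4.35, 4.69 and 4.47 in knockout (0.16, limma adjusted p = 0.418).

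The remaining measured members move or modify cholesterol, and neither passed. Stard4, a carrier of cholesterol between membranes and a known SREBP target, read 6.48, 6.75 and 6.52 in control and 5.75, 6.32 and 6.27 in knockout. The knockout arrays were all below the control arrays, with replicate 1 far below the others (difference -0.47, limma adjusted p = 0.117). Without that array the difference was -0.29 (limma adjusted p = 0.196). Ch25h, whose product makes an oxysterol that restrains SREBP, read 2.86 ± 0.15 and 2.59 ± 0.14 (limma adjusted p = 0.191), under 3.6 in all arrays.

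Knockout replicate 1 stood lower than its partners for these genes. It was the lowest of the 3 knockout arrays in 18 of 28 members (64.3%), against 34.0% of all rows, while its median over all rows, 3.62, was within the range of the other arrays. Knockout replicates 2 and 3 were lowest in 3 and 6 members. The median distance of the 28 genes from the control mean was -0.23, -0.10 and -0.11 in knockout replicates 1, 2 and 3. Over the 6 genes that fell, which were called on these same arrays, the mean distance was -0.67, -0.55 and -0.62. Without knockout replicate 1 the difference was -0.79 for Cyp51, -0.77 for Insig1 and -0.76 for Lss.

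The start regions of the genes were searched for the letters of 4 well known motifs, because SREBP and RUNX factors bind DNA. RefSeq promoters of GRCm38.p6, from 250 bases before to 50 bases after a transcript start, were found for 23 of the 28 genes, 32 windows in all. The sterol regulatory element was searched as TCACNCCAC, the RUNX motif as TGNGGT, the NF-Y box as CCAAT and the Sp1 box as GGGCGG. Each was searched on both strands, and N stands for any base. NF-Y and Sp1 are known partners of SREBP at its target promoters. A match describes letters and is not shown to be a bound site. The promoters of the 3 genes with the largest falls are printed 5′ to 3′. With them are that of Hmgcs1, which held the only match to the searched sterol letters, and that of Hsd17b7, which went the other way. Capitals mark the NF-Y box in either orientation and, in Hmgcs1, the sterol element as well.
Hmgcs1 (chr13:119690101-119690400, strand +): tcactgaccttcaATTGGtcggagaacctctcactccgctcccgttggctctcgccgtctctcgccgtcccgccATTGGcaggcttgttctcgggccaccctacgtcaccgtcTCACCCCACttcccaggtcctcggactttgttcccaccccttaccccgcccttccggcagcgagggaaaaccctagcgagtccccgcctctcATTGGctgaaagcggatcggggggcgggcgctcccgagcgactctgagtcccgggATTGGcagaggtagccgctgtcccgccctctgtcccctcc
Insig1 (chr5:28071162-28071461, strand +): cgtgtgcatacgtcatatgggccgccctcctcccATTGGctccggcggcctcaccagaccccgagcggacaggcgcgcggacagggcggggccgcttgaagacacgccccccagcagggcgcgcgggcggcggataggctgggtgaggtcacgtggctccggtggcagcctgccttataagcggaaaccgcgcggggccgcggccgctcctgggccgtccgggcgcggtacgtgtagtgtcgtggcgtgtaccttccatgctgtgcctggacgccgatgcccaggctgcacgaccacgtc
Lss (chr10:76531355-76531654, strand +): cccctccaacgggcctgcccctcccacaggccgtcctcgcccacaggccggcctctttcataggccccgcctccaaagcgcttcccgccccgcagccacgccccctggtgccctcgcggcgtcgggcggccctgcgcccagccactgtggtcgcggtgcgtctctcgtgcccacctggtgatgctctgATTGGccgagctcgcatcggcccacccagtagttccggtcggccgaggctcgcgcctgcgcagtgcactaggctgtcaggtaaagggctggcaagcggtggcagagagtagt
Cyp51 (chr5:4104648-4104947, strand -): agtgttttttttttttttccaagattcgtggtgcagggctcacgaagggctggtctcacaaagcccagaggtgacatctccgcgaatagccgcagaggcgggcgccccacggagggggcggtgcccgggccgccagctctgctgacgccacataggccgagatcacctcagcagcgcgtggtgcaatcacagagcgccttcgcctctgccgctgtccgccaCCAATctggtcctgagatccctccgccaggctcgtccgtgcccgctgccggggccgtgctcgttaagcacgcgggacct
Hsd17b7 (chr1:169969156-169969455, strand -): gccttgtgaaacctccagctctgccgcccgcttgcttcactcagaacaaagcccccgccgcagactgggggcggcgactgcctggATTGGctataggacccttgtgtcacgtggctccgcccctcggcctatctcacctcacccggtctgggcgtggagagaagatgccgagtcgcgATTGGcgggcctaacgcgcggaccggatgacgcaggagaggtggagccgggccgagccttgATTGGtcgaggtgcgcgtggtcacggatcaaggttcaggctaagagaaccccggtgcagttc

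The NF-Y box was common to these promoters whether the gene fell or rose. It was present in 20 of the 32 member windows (62.5%) and in 37.4% of all 32851 promoters in the RefSeq table. By gene, 19 of 23 held it, among them all 14 synthesis enzymes with a window and all 8 called genes with a window, against 41.1% of all genes. Hsd17b7 held 3 boxes, at -165, -73 and -12 from the start base, and Hmgcs1 held 4. The Sp1 box stood in 24 windows (75%, against 35.7% of all promoters, or 46.8% of promoters of genes with a named row).

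The sterol element in its searched letters was found in 1 window, that of Hmgcs1, at -137, as TCACCCCAC. All promoters held it in 1.24%. Its absence elsewhere says only that these letters are not in these windows. The searched RUNX letters were in 11 of 32 windows (34.4%), against 45.8% of all promoters. By gene they were in 11 of 23 (47.8%), against 49.1% of all genes. Lss at -105, Insig1 at -107, Cyp51 at -86 and Hsd17b7 at -115 each held 1 match. Read on the strand of the match, the letters were TGTGGT in Lss and TGAGGT in Insig1, Cyp51 and Hsd17b7. Whether these spellings serve as RUNX sites was not tested. In Hmgcs1 the match, TGGGGT on the reverse strand, began at -135 and lay inside the sterol element. That overlap rests on the open letter N of the search and is not shown to be a shared site.

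**Figure D3:**
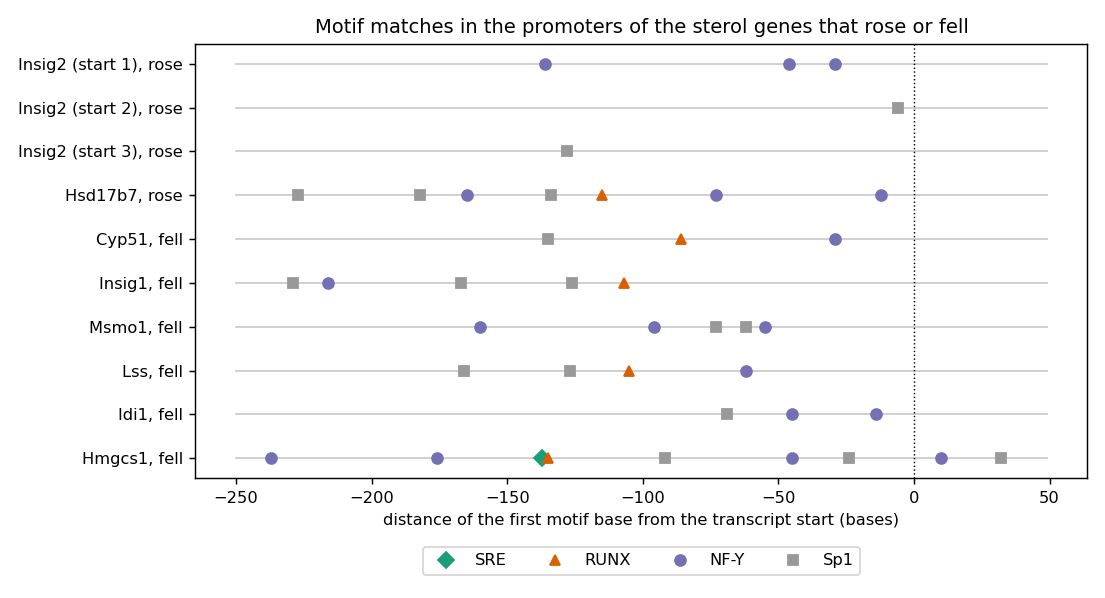
Positions of motif matches in the promoters of the called genes with a window, as the distance in bases of the first matched base from the transcript start (0, dotted line). Each grey line is 1 promoter of 300 bases, Insig2 has 3, and symbols mark the sterol regulatory element (SRE), RUNX, NF-Y and Sp1 letters on either strand. Each of the 8 genes has a purple NF-Y mark in at least 1 promoter, and the green SRE mark appears in Hmgcs1 alone, beside a RUNX mark.

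Other genes of sterol supply were taken from lists grouped by function. Across these lists 51 genes were measured, of which 6 fell and 1 rose, beside 4.24% and 5.51% of all rows. Only 4 of the 51 had a group mean below the median level of 3.6, so here too all rows are not matched in level. Of 8 measured genes for further synthesis and uptake, 3 fell and 1 rose. Npc2, the soluble lysosomal protein that hands cholesterol to the membrane protein NPC1, read 8.65, 8.72 and 8.90 in control and 9.48, 9.59 and 9.57 in knockout. Its rise of 0.79 separated the groups (limma adjusted p = 0.00201). Npc1 read 7.70 ± 0.11 and 7.94 ± 0.060 (limma adjusted p = 0.160). Lipa, the lysosomal acid lipase that frees cholesterol from its esters, moved the other way, from 7.63 ± 0.10 to 7.07 ± 0.24 (limma adjusted p = 0.0309). Of these lysosomal genes, Npc2 rose, Lipa fell and Npc1 did not pass.

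Lipa passed without knockout replicate 3 (limma adjusted p = 0.0116) and missed the threshold without any of the other 5 arrays (limma adjusted p 0.0543 to 0.106). Tmem97, a binding partner of NPC1 that is induced when sterols are low, fell from 7.85 ± 0.075 to 7.44 ± 0.060 (limma adjusted p = 0.0184). It passed without knockout replicate 1 (limma adjusted p = 0.0380) and missed the threshold without any other array (limma adjusted p 0.0501 to 0.0652).

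SREBP also drives fatty acid synthesis, and of 12 measured genes of that arm 3 fell, none rose and 9 did not pass. By the same test 4.24% of all rows fell and 5.51% rose. Scd1, which puts the double bond into saturated fatty acids, read 7.32, 7.59 and 7.43 in control and 5.84, 6.25 and 6.45 in knockout. Its fall of 1.27 was the largest difference among the 51 further genes measured (limma adjusted p = 0.00237). Fads2, a desaturase gene of polyunsaturated fatty acids, fell from 7.92 ± 0.038 to 7.09 ± 0.32 (limma adjusted p = 0.0119). Acaca, the acetyl-CoA carboxylase gene, fell from 7.69 ± 0.14 to 7.20 ± 0.078 (limma adjusted p = 0.0183).

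The call of Acaca was lost without control replicate 2 (limma adjusted p = 0.0760), control replicate 3 (0.0685), knockout replicate 1 (0.0587) or knockout replicate 2 (0.0661). The fatty acid synthase gene Fasn lay just outside the threshold (-0.31, limma adjusted p = 0.0548). Fads1, a desaturase gene that works beside Fads2, read 6.62 ± 0.13 and 6.78 ± 0.28 (limma adjusted p = 0.593). The paralogue Scd2 differed by -0.33 (limma adjusted p = 0.103). The 12 genes did not share 1 direction, with 7 differences below 0, 4 above and 1 at 0.

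Further genes of sterol sensing and the isoprenoid branch gave no call. Of 20 measured genes for control of SREBP, sterol transfer and oxysterol response, 0 passed by limma, and 6 had an unadjusted p under 0.05, as did 22.9% of all rows. The ubiquitin ligase genes Rnf139 (-0.33, limma adjusted p = 0.0545) and Rnf145 (0.29, limma adjusted p = 0.0569) came nearest, then the oxysterol receptor gene Gpr183 (-0.33, limma adjusted p = 0.0692). Of 11 measured genes that use isoprenoids for protein prenylation, ubiquinone or dolichol, 0 passed by limma, and 0 had an unadjusted p under 0.05, against the same 22.9%. Rabggtb, a prenyltransferase subunit gene, came nearest (-0.26, limma adjusted p = 0.310), then Icmt (0.10, limma adjusted p = 0.586), and Dhdds (-0.10, limma adjusted p = 0.612). Differences in this list ran only from -0.26 to 0.10.

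**Figure D4:**
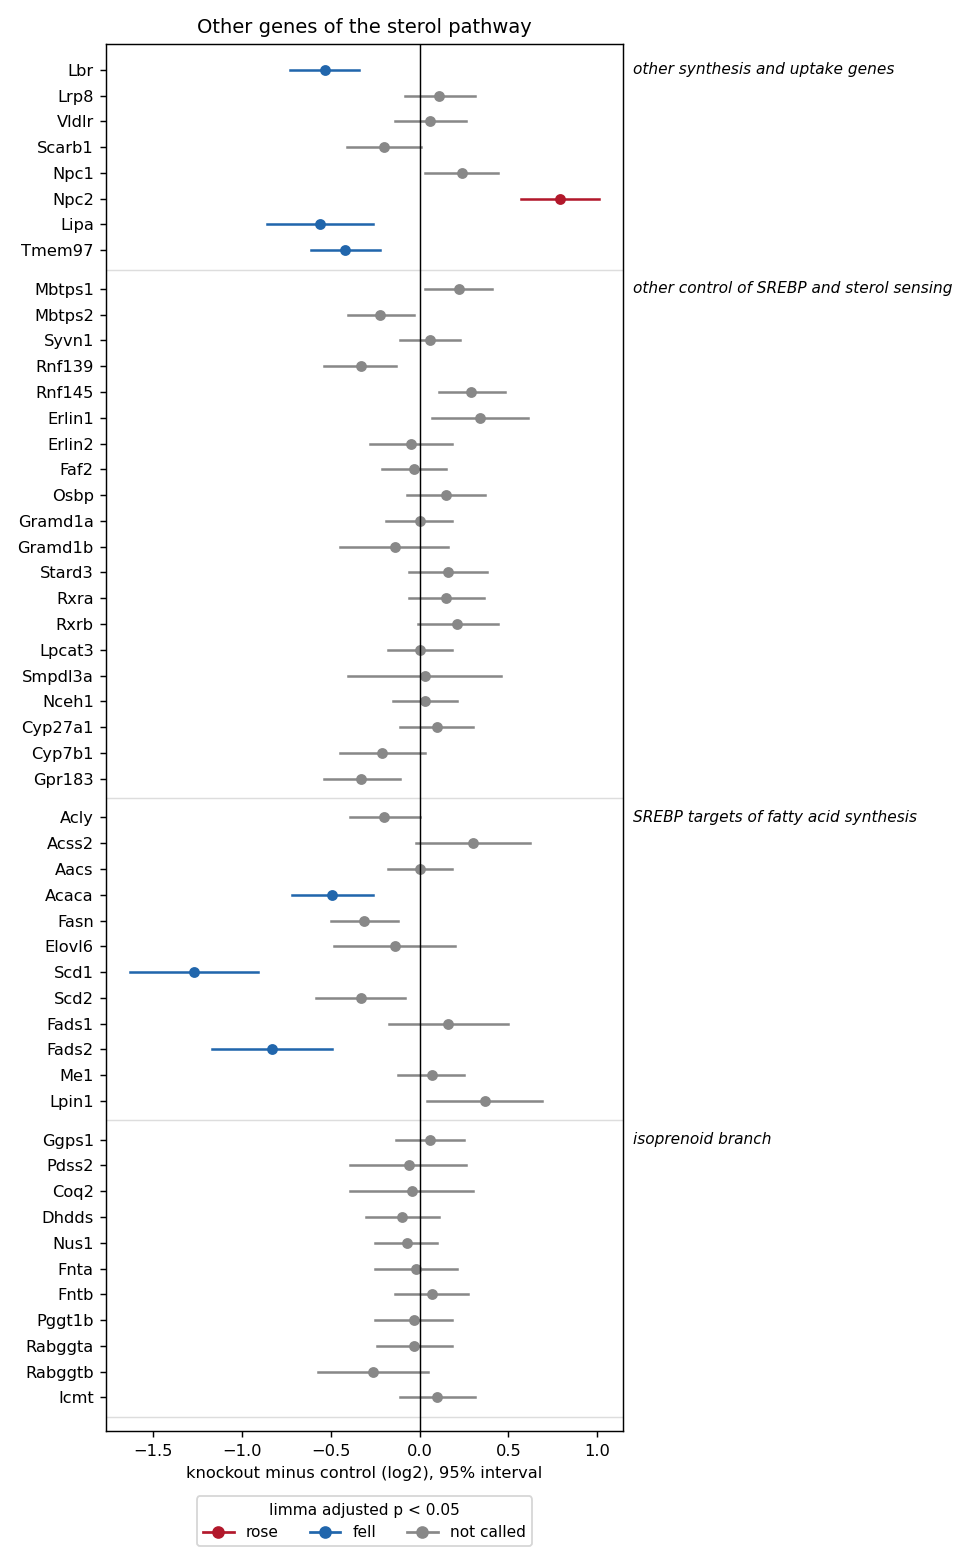
Difference of knockout minus control in log2 units for 51 further genes of the sterol and SREBP pathways, in 4 lists. Points are differences between the means of 3 arrays per group, bars are 95% intervals, and colour marks genes that rose, fell or were not called by limma. Npc2 lies to the right, Scd1 and Fads2 lie furthest to the left, and the isoprenoid genes lie close to 0.

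**Figure D5:**
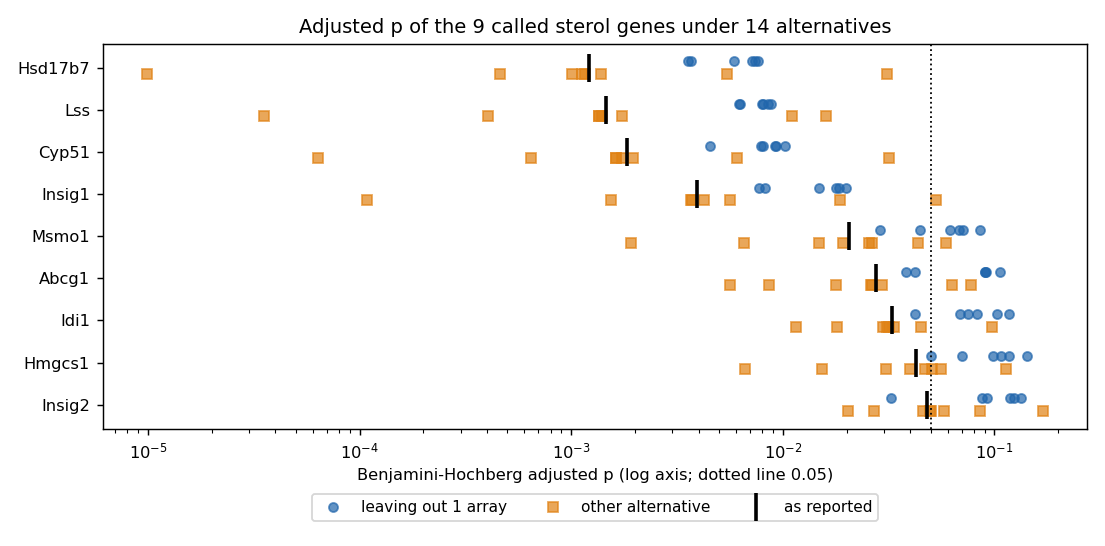
Benjamini-Hochberg adjusted p of the 9 called sterol genes, on a log axis, as reported (black line), when 1 array was left out (blue) and under 8 other alternatives (orange). The dotted line is the threshold of 0.05. Hsd17b7, Lss and Cyp51 stay left of it throughout, Insig1 crosses it once at 0.0532, and the lower 5 genes lie on both sides.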

How the data were processed

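Arrays of 3 control and 3 knockout samples were analysed from the deposited value table. Its values are log2 intensities summarised by RMA, per the submitters' processing notes, which also name limma 3.14.4. That the scale is log2 was read from the range of the values. The order of the steps and any detection calls are not given in the sources used here. RMA normalises the probe values of the arrays to 1 distribution, so a shift common to all genes cannot be seen, and it compresses low values. The summarised values still differed slightly, with array medians from 3.57 to 3.63. Rows were named through the platform annotation (23185 of 25206 rows had a gene symbol).

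Groups were compared with limma 3.58.1 (lmFit and eBayes) on the values as deposited, with no filter. Benjamini-Hochberg adjustment ran over all 25206 rows, and rows under 0.05 were called. With 3 arrays against 3, an exact permutation test cannot go below 0.10, so none was used. The script was tested on simulated data. All members with a row are named, array by array where called or in the SREBP and LXR groups. Of each companion list, genes past the threshold and at least the 3 with the smallest adjusted p are named, and further genes (Npc1, Fasn, Fads1 and Scd2) were chosen after their values were seen. The members and lists were chosen with earlier results of these data known. The alternatives covered scaling, a filter on low rows, variance moderation, the replicate number as a block and each array left out. Array number limits the precision.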

Additional observations from a re-analysis of the deposited data

How the results depend on the processing

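In 14 alternatives no called sterol gene changed sign. Lss, Cyp51 and Hsd17b7 passed in all of them. The median difference of the 28 genes was -0.16 to -0.11 in the 10 alternatives for which it was computed. The sign changed for Fdft1, Nsdhl, Ebp and Scap, none of them called. Without variance moderation 1 sterol gene rose and 2 fell (672 rows rose and 582 fell in the whole table), and 2 companion genes rose and 2 fell. That fit used an ordinary t-test with Benjamini-Hochberg adjustment. The threshold was then missed by Insig1 (t-test adjusted p = 0.0532), Msmo1 (0.0588), Abcg1 (0.0630), Idi1 (0.0977), Hmgcs1 (0.113) and Insig2 (0.169). Among the companions it was missed by Scd1 (t-test adjusted p = 0.0539), Acaca (0.0767), Fads2 (0.106) and Lipa (0.145). With arrays centred on their medians Hmgcs1 missed it too (limma adjusted p = 0.0561). When the fit was limited to rows above the median level, 5 sterol genes rose, now with Abca1 (limma adjusted p = 0.0222) and Mvd (0.0483), and 6 fell. In that fit 2 companion genes rose and 11 fell. Calls were more frequent there in the table as a whole: 1953 rows rose and 1564 fell, from fewer rows, against 1389 and 1068 as reported. With a trended, robust prior 1626 rows of the table fell and 3 companion genes rose, and with quantile normalisation repeated 2 companion genes rose. Leaving out 1 array gave 1 to 2 sterol genes that rose and 3 to 5 that fell, 1 to 2 companion genes that rose and 3 to 5 that fell, and 763 to 1113 rows that rose and 544 to 786 that fell. With the replicate number as a replicate block, 2 sterol genes rose and 5 fell, and Hmgcs1 (limma adjusted p = 0.0506) and Abcg1 (0.0774) missed the threshold. Of all rows, 1027 then rose and 718 fell. Same-numbered arrays deviated together with correlations of only 0.0067 to 0.054, beside -0.065 to 0.044 for arrays of different numbers. By these correlations 3 of 6 arrays were closest to the array of their own number in the other group. The numbers were therefore not used as pairs. The causes were not tested. The values carry no detection calls, which limits what can be said of Ch25h and Nr1h3, both near or under the median level.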
